A study of Homo sapiens with 4 samples.

Results

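HMGA2 and HMGB1 encode chromatin proteins of the high mobility group, and their rows were taken from the 4 deposited tables as 2 of 1176 listed genes. They were chosen because earlier results of these data had shown them at opposite ends of the same comparison, so their difference between the groups is described here and not tested. The libraries came from RCC4, a human clear cell renal carcinoma line that lacks functional VHL. One group received a lentiviral hairpin against the RNA MIRE (shMIRE, genotype given as MIRE knockdown, n = 2), and the other a lentiviral control hairpin (shControl, genotype given as WT, n = 2), all sampled on day 3 in serum-containing medium. Nothing in the labels ties the 2 libraries of a group to separate cultures, and the spread behind each p-value may therefore be technical.

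High mobility group proteins are small, abundant nuclear proteins that bind DNA with little sequence preference and change its shape. HMGA2 binds the minor groove of AT-rich DNA through short AT-hook motifs. It is abundant in embryonic cells, silent in most adult tissues and switched on again in many tumours, and its mRNA is a textbook target of the let-7 microRNAs. HMGB1 bends DNA with a pair of HMG-box domains and is present in most nuclei. Released from damaged or activated cells, it acts as an alarm signal through the receptors RAGE and TLR4.

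The transcripts of HMGA2 and HMGB1 differ in the short sites of their 3′ UTRs, which are shown here because they are what the 2 genes carry beside their values. HMGA2 (ENSG00000149948) lies on the plus strand of chromosome 12 from 65824131 to 65966295, and HMGB1 (ENSG00000189403) on the minus strand of chromosome 13 from 30456704 to 30617597 (GRCh38, GENCODE 29, 1-based). The mature let-7a microRNA, from RefSeq (GRCh38.p14), is given with its seed, bases 2 to 8, in capitals. The 4 sites below it are those of the HMGA2-204 transcript that pair with the whole seed, each shown as the sense strand of the 3′ UTR, 5′ to 3′, with the match CTACCTC in capitals.
let-7a-5p: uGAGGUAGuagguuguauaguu
HMGA2 chr12:65963298-65963320: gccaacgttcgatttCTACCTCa
HMGA2 chr12:65964533-65964555: ccccactactcaataCTACCTCt
HMGA2 chr12:65964945-65964967: ttgacttgcaaagacCTACCTCc
HMGA2 chr12:65965798-65965820: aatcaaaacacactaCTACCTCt

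All 9 mature microRNAs of the let-7 and miR-98 family held in the RefSeq table share this seed, GAGGUAG. The HMGA2-204 transcript encodes 109 residues and has a 3′ UTR of 3003 bases, in which the matches start at bases 21, 1256, 1668 and 2521. The first is followed by A, which makes it the 8-base site CTACCTCA. A further 3 places pair with bases 2 to 7 and carry an A opposite base 1 (TACCTCA), which gives 7 places in all. Of the 7 coding transcripts of HMGA2 in GENCODE 29, HMGA2-204 is the 1 that holds the seed match. The other coding transcripts end in other exons, among them the one with the longest annotated 3′ UTR (7421 bases), and values per gene do not say which end was used.

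HMGB1 had 0 seed matches in its 6 coding transcripts, and its longest 3′ UTR (HMGB1-203, 4653 bases) held TACCTCA once, 4505 bases from its start. It also held the heptamer GCTGTGT, which an earlier look at these data had found more often in genes lower in shMIRE. The heptamer was present in 5 of the 6 coding transcripts of HMGB1 and in 0 of the 7 of HMGA2. The site is shown with the heptamer in capitals, on the transcribed minus strand.
HMGB1 chr13:30461254-30461276: aaaattgaaatgtaagGCTGTGT

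**Figure D1:**
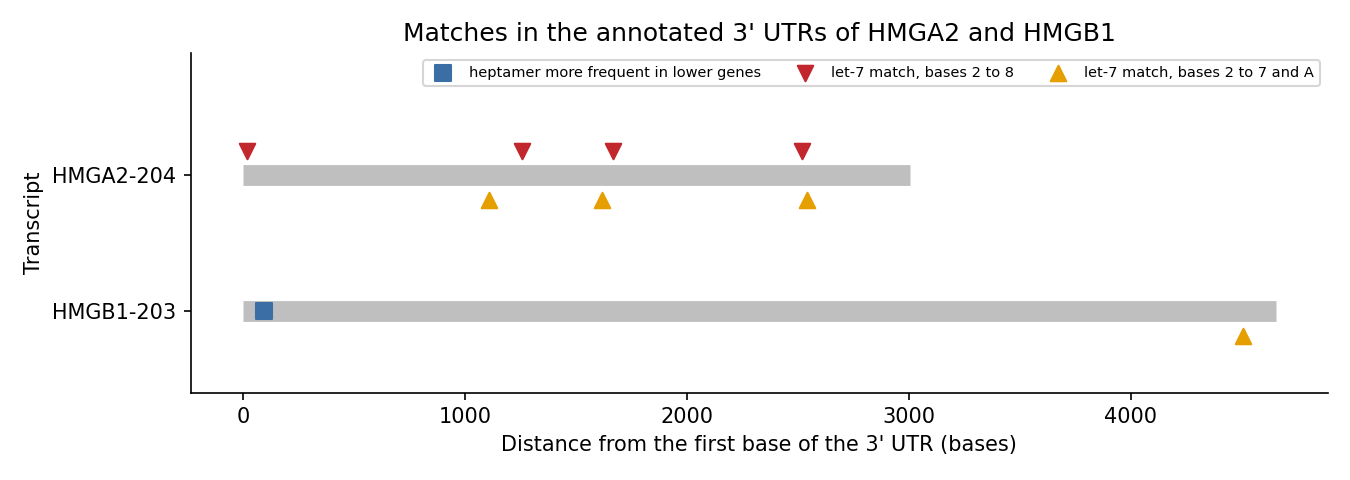
The x axis gives the distance in bases from the first base of the 3′ UTR and the rows are the HMGA2-204 and HMGB1-203 transcripts, drawn as bars of 3003 and 4653 bases. Downward triangles mark the 4 let-7 seed matches of HMGA2, upward triangles the further matches of bases 2 to 7 with an A (3 in HMGA2, 1 in HMGB1), and the square the heptamer GCTGTGT in HMGB1.

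Across the listed genes, the share of genes with a let-7 match depended on the match searched for, on the sense strand only. With the longest annotated 3′ UTR of each gene the seed match CTACCTC was present in 59 of 459 genes higher in shMIRE (12.9%) and in 77 of 703 genes lower in it (11.0%), or 136 of 1162 in all (11.7%). The 8-base site CTACCTCA was present in 6.10% of the higher and 3.27% of the lower genes. By that rule HMGA2 itself counts as having no match, because its longest 3′ UTR belongs to another transcript than HMGA2-204. The weaker match TACCTCA, counted also within CTACCTCA, was present in 80 of 459 higher genes (17.4%) and 66 of 703 lower genes (9.39%), whose median 3′ UTR lengths were 1653 and 1287 bases. The heptamer GCTGTGT was present in 84 of 459 higher genes (18.3%) and 289 of 703 lower genes (41.1%). MicroRNAs were not analysed here, and a match in a 3′ UTR is a description of its letters.

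The deposited values are whole numbers that look like read counts per gene already scaled between libraries and rounded, and they are called values here. They summed to 2043204 and 2002994 over the listed genes in shMIRE and to 2476944 and 2514039 in shControl, which is no measure of the depth of the libraries. The tables hold genes that differed by about 2-fold or more, 463 with a higher and 713 with a lower mean in shMIRE. With limma, 1147 of the 1176 listed genes passed an adjusted p of 0.05 (97.5%; 453 up, 38.5%, and 694 down, 59.0%), so a call says little about any listed gene. MIRE was taken to be SAP30-DT, for which RefSeq gives that name as a synonym, and its level in the cells was not analysed here. The extent of its knockdown is therefore unknown.

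HMGA2 was much higher in shMIRE. Its values were 28224 and 27325 in the shMIRE libraries, against 2846 and 3140 in the shControl libraries. Both shMIRE libraries stood above both shControl libraries, which says little for a gene listed with a difference of about 2-fold or more. The means were 27775 ± 636 in shMIRE and 2993 ± 208 in shControl (SD, n = 2 each), a ratio of 9.28. Over the 4 pairings of a shMIRE with a shControl library the ratio lay between 8.70 and 9.92. Limma's log2 fold change on log2(value + 1) was 3.22 (SE 0.075). In the bulk RNA of these cultures, a change in the share of cells with HMGA2 mRNA and a change per cell cannot be told apart.

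HMGB1 was lower in shMIRE. Its values were 8189 and 8406 in the shMIRE libraries, against 23664 and 23752 in the shControl libraries. The libraries of a group lay closer together than those of HMGA2. The means were 8298 ± 153 in shMIRE and 23708 ± 62.2 in shControl (SD, n = 2 each), so that shControl was 2.86-fold above shMIRE. The same ratio lay between 2.82 and 2.90 over the 4 pairings. Limma's log2 fold change was -1.51 (SE 0.059).

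**Figure D2:**
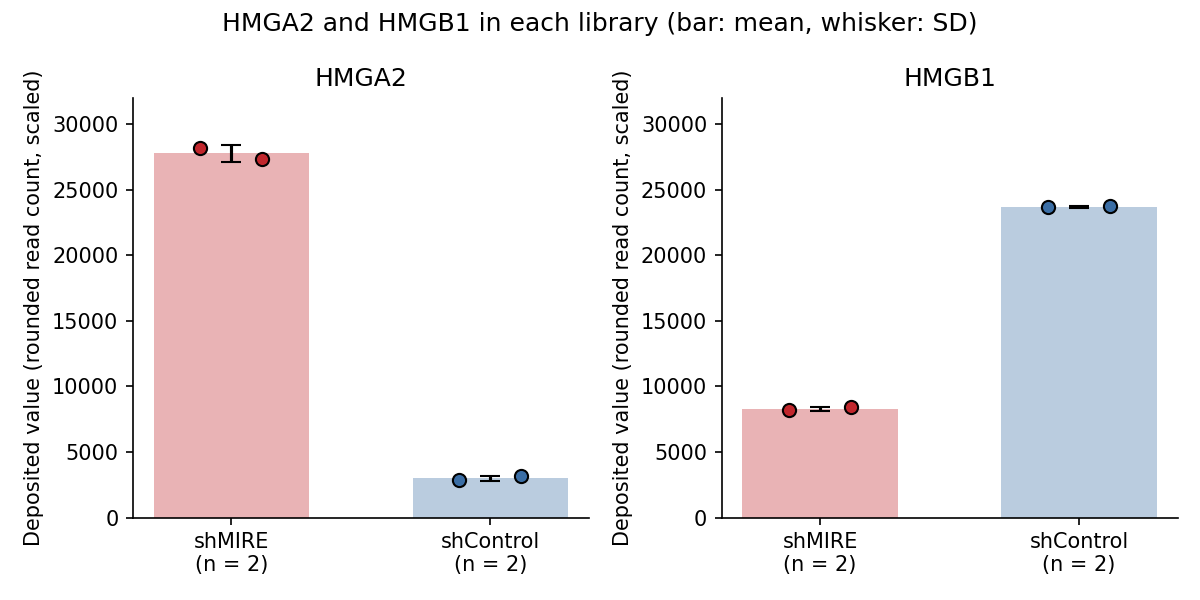
The y axes give the deposited value of HMGA2 (left) and HMGB1 (right), with shMIRE left of shControl. Points are the 2 libraries of a group, bars their mean and whiskers the SD; HMGA2 stands at 27325 to 28224 in shMIRE and 2846 to 3140 in shControl, and HMGB1 at 8189 to 8406 in shMIRE and 23664 to 23752 in shControl.

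Per kilobase of all annotated exons, the order of the 2 genes was reversed between the 2 groups. Levels of different genes were compared per kilobase of annotated exon sequence (15403 bp for HMGA2 and 7723 bp for HMGB1). HMGA2 had 1832 and 1774 per kb in shMIRE, against 185 and 204 per kb in shControl. HMGB1 had 1060 and 1088 per kb in shMIRE, against 3064 and 3075 per kb in shControl. HMGA2 was thus 1.73 and 1.63 times HMGB1 in the shMIRE libraries, whereas HMGB1 was 16.6 and 15.1 times HMGA2 in the shControl libraries. The lengths of HMGA2-204 (4473 bases) and HMGB1-202 (2319 bases) in place of all exons gave 1.79 and 1.69 in shMIRE, and 16.0 and 14.6 in shControl. Among the 1174 listed genes with an annotated length, HMGA2 ranked 50 per kb in both shMIRE libraries and 422 and 409 in the shControl libraries. HMGB1 ranked 94 and 91 in shMIRE, and 29 and 33 in shControl.

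Reads of both genes can be shared with other annotated sequences. GENCODE 29 lists 48 pseudogenes named after HMGB1, of which 0 were listed here, and 15.5% of the 50-base stretches of HMGB1-203 occur word for word in transcripts of other genes. For the longest coding HMGA2 transcript the share was 0.0994%. How such reads were assigned is not given in the sources used here, so the level of HMGB1 is uncertain by an amount that was not tested. HMGA2 overlaps RPSAP52 and a pair of annotated antisense genes on the opposite strand, and HMGB1 overlaps 1 antisense gene and the pseudogene PTPN2P2 there. On the same strand AC107308.1 lies within HMGA2, and the pseudogenes RBM22P2 and MFAP1P1 within HMGB1. Whether strand was used in counting is not given either. Overlap was taken over whole gene spans, introns included, so whether reads of these partners were counted with the 2 genes was not tested.

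Among the abundant listed genes, HMGA2 had the largest ratio upward, and HMGB1 lay within the run of the lower genes. Abundant is used for a mean over the 4 libraries of at least 10000, which 39 of the 1176 genes reached, 19 higher and 20 lower in shMIRE. HMGA2 reached it through shMIRE alone, as its mean was 2993 in shControl. HMGB1 reached it through shControl alone, as its mean was 8298 in shMIRE. HMGA2, with a mean of 15384, had the largest ratio of the 19 higher genes, 9.28 against 3.50 for the next gene and a median of 2.40. That gap depends on the minimum. SIGLEC15, with means of 12167 in shMIRE and 1474.5 in shControl, falls below it and had a ratio of 8.25. With a mean of at least 5000, which admits SIGLEC15, HMGA2 ranked 1 of 47 higher genes. HMGB1, with a mean of 16003, ranked 8 among the 20 lower genes, whose ratios of shControl to shMIRE ran between 2.001 and 4.94 with a median of 2.68. That rank was 12 of 26 without shMIRE replicate 1, 11 of 26 without shMIRE replicate 2 and 6 of 16 without shControl replicate 1. The minimum was applied anew to the libraries left, so the set of genes ranked changed. With a mean of at least 5000 the rank was 30 of 65. All 39 genes passed the threshold, against 97.5% of all listed genes.

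The next abundant genes by ratio upward included adhesion molecules. VCAM1, a ligand of leukocyte integrins, rose 3.50-fold, ITGB2, the integrin beta 2 subunit, 3.48-fold, ITGA5, the integrin alpha 5 subunit, 2.94-fold, and ICAM1, the ligand of beta 2 integrins, 2.65-fold. VCAM1 had 15320 and 16165 in shMIRE, against 4832 and 4168 in shControl. SH2B3, an adaptor that restrains cytokine receptor signalling, rose 2.93-fold and CSF1, the growth factor of macrophages, 2.78-fold. The tetraspanin gene CD82 rose 2.53-fold, the AP-1 subunit gene FOSL1 2.45-fold and the receptor tyrosine kinase gene AXL 2.40-fold. Of these genes AXL, FOSL1 and ITGA5 had higher values than HMGA2 in shMIRE. AXL stood at 55134 ± 1710 in shMIRE and 23013 ± 185 in shControl (SD, n = 2 each).

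The abundant genes with the largest ratios downward had more varied roles. TPI1, the glycolytic triosephosphate isomerase, fell 4.94-fold, with 9267 and 9199 in shMIRE, against 44327 and 46964 in shControl. TRIB3, a stress-induced pseudokinase, fell 4.23-fold. TTYH3, a member of the tweety membrane proteins, fell 3.49-fold, MGAT4B, a glycosyltransferase of N-glycans, 3.46-fold, DPYSL3, a cytoskeletal regulator first studied in neurons, 3.35-fold, RHOB, a small GTPase, 3.24-fold, and CCT5, a subunit of the TRiC chaperonin, 3.12-fold. Just after HMGB1 in this order came SLC7A5, which encodes the amino acid transporter LAT1 (2.81-fold), and CALM3, a calmodulin gene (2.73-fold). The neighbours CCT5, HMGB1 and SLC7A5 differed little in ratio. The heptamer GCTGTGT was in the longest 3′ UTR of 15 of the 20 lower abundant genes, HMGB1 among them, and of 3 of the 19 higher ones. Over all listed genes it was in 41.1% of the lower and 18.3% of the higher ones. It was picked from an earlier look at these data, and the abundant genes are part of the same set. These counts are therefore no further evidence.

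**Figure D3:**
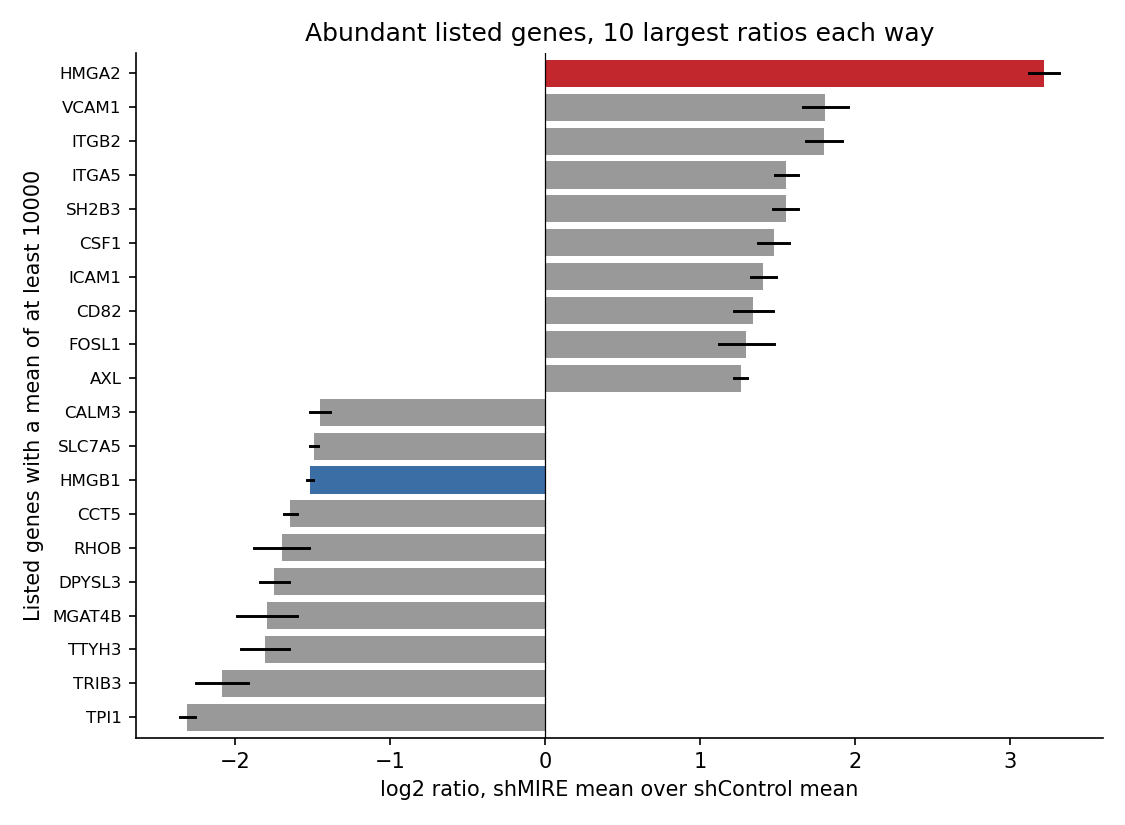
Bars give the log2 ratio of the shMIRE mean to the shControl mean for the 10 genes with the largest ratios each way among the 39 listed genes with a mean of at least 10000, and black lines the range over the 4 pairings of a shMIRE with a shControl library. HMGA2 (red) extends beyond all other bars on the positive side, while HMGB1 (blue) lies within the run of lower genes, between CCT5 and SLC7A5.

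Over all listed genes, a larger ratio than that of HMGA2 was found at low levels alone. Of 431 higher genes with a ratio, 16 exceeded 9.28, and the highest mean among them was 494.5, that of SOCS1, an inhibitor of cytokine signalling, with 1016 and 827 in shMIRE, against 56 and 79 in shControl. Their median mean was 20.4. Of the 177 higher genes with a mean of at least 1000, 0 exceeded HMGA2. Another 32 higher genes have no ratio, as both their shControl values are 0, with means up to 225.75. For HMGB1, 303 of 629 lower genes with a ratio exceeded 2.86, and 96 of the 254 with a mean of at least 1000 did. In the size of the difference itself, HMGA2 gained 24782 and ranked 3 among the higher genes after AXL (32122) and MICAL2 (25624). HMGB1 differed by -15411 and ranked 11 among the lower genes, where SLC7A5 fell by 49059.

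**Figure D4:**
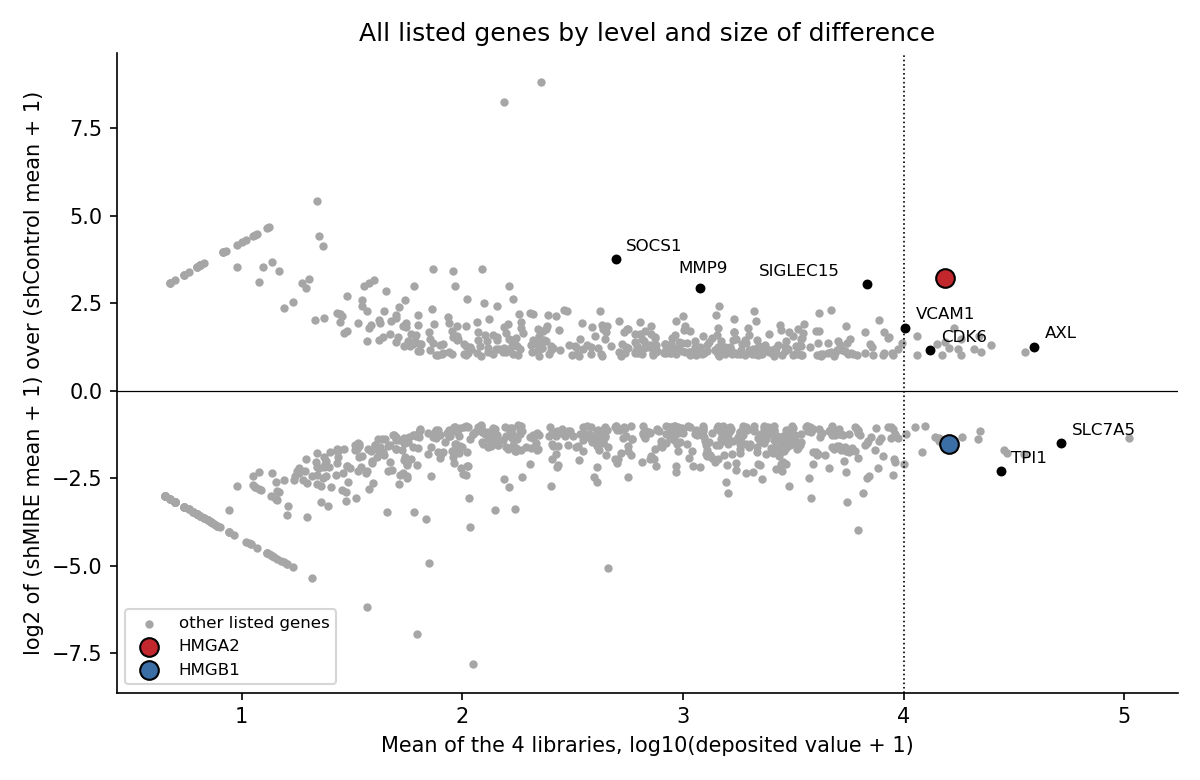
Each point is one of the 1176 listed genes, with the mean of the 4 libraries on a log10 axis and the log2 ratio of the groups, each mean raised by 1, on the y axis; the dotted line marks a mean of 10000. HMGA2 (red) lies above the other genes right of that line, HMGB1 (blue) lies within the band of lower genes, and the empty band around 0 shows that genes below about 2-fold were not listed.

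The genes whose profile over the 4 libraries was nearest to that of each gene were found among the 796 listed genes with a mean of at least 100, by Euclidean distance between log2(value + 1) profiles centred on their own mean. With 4 libraries in 2 groups this measure mostly compares the size of the difference. For HMGA2 the nearest was SIGLEC15, a lectin that binds sialic acid (distance 0.19), with 12768 and 11566 in shMIRE, against 1355 and 1594 in shControl. Next came MMP9, the gelatinase B gene (0.28), MYH15, a myosin heavy chain gene (0.613), SOCS1 (0.627) and STRA6, the receptor for retinol-binding protein (0.635). For HMGB1 the 5 nearest lay closer, at 0.055 to 0.081: SLC7A5, CEACAM19, a gene of the carcinoembryonic antigen family, CALM3, ESYT2, which encodes an extended synaptotagmin, and CLNS1A, the assembly chaperone pICln. The fifth nearest gene of HMGA2 thus lay farther off than that of HMGB1.

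The wider family of genes with high mobility group domains was listed in small part. Of 39 genes of this list, 6 were listed, including HMGA2 and HMGB1, and 2 rose and 4 fell, against 38.5% up and 59.0% down among all listed genes. Their median log2 fold change was -1.16, the same as the -1.16 of all listed genes. The other 4 are SOX genes, transcription factors with a single HMG domain. SOX9, a regulator of progenitor and cartilage cells, rose 2.14-fold, with 1409 and 1121 in shMIRE, against 539 and 641 in shControl. SOX13 fell 2.04-fold, with 669 and 471 in shMIRE, against 1072 and 1252 in shControl. SOX18, an endothelial factor, fell 2.44-fold to 43.0 ± 5.66 in shMIRE, against 105 ± 12.7 in shControl (SD, n = 2 each), and SOX2, a factor of pluripotent cells, had 8 and 13 in shMIRE, against 25 and 50 in shControl. The relatives HMGA1, HMGB2 and HMGB3 and the HMGN genes were not among the listed genes and were not analysed here.

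Calls of these SOX genes were lost when a library was left out, as were those of many other listed genes. Such a loss, here and for the list genes below, is therefore no trait of these genes alone. Without shControl replicate 1, limma's adjusted p was 0.0899 for SOX13, 0.0673 for SOX18 and 0.0528 for SOX2, and without shControl replicate 2 it was 0.123, 0.0883 and 0.120. SOX9 did not pass without shControl replicate 1 (0.0639) and SOX18 did not without shMIRE replicate 2 (0.0596). SOX2 did not pass without shMIRE replicate 1 or 2 either (0.163 and 0.0902), nor with quantile normalisation (0.135).

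Genes of let-7 processing and its known or proposed targets moved both ways. Of 44 genes, 9 were listed, 5 rose and 4 fell. Their median log2 fold change was 1.11, against 38.5% up, 59.0% down and a median of -1.16 for all listed genes. The list was chosen with earlier results of these data known, and HMGA2, itself chosen for its difference, is among those that rose. Beside HMGA2, the cell cycle kinase gene CDK6 rose 2.24-fold, with 17834 and 18595 in shMIRE, against 9009 and 7259 in shControl. CCND2, which encodes cyclin D2, rose 2.31-fold, ARID3B, an AT-rich DNA-binding protein, 2.26-fold and the death receptor gene FAS 2.15-fold. CCND1, which encodes cyclin D1, fell 4.06-fold, with 3650 and 3553 in shMIRE, against 14131 and 15122 in shControl. PLAGL1, a zinc finger factor, fell 2.10-fold, the phosphatase gene CDC25A 2.33-fold and IGF2BP1, an mRNA-binding protein of embryonic and tumour cells, 3.05-fold. IGF2BP1 has 4 seed matches in its longest 3′ UTR and CDC25A 2. ARID3B and FAS have 1, and CDK6, CCND2, CCND1 and PLAGL1 have 0 in any coding transcript. Over all listed genes, 14 higher and 4 lower ones held at least 2 seed matches in a coding transcript. That count was looked at after the other values were known. LIN28A, LIN28B and DICER1, which act on let-7 itself, were not analysed here. Leaving out shControl replicate 1 or 2 gave CDC25A limma's adjusted p of 0.0614 and 0.0843 and IGF2BP1 one of 0.109 and 0.172, and leaving out shMIRE replicate 1 gave IGF2BP1 0.0880.

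Of 33 genes linked to HMGA2 in tumour cells or development, 7 were listed, 5 rose and 2 fell. Their median log2 fold change was 1.30, beside 38.5% up, 59.0% down and a median of -1.16 over all listed genes. As the list was chosen with earlier results of these data known, these counts are no independent evidence. Proteases and integrin subunits were among the higher ones: MMP9 rose 7.75-fold, with 2210 and 1991 in shMIRE, against 266 and 276 in shControl, ITGA5 rose 2.94-fold, MMP2, the gelatinase A gene, 2.88-fold and ITGB3, the integrin beta 3 subunit, 2.02-fold. The cytokine gene IL6 rose 2.45-fold, while its relative IL11 fell 3.85-fold, with 246 and 159 in shMIRE, against 721 and 838 in shControl. CDKN2A, which encodes the cell cycle inhibitor p16, had 42 and 160 in shMIRE, against 294 and 586 in shControl. Its libraries differed widely within each group, and its call was lost when shControl replicate 1 or 2 was left out (limma's adjusted p = 0.163 and 0.287), when shMIRE replicate 1 was (0.164) and with no intensity trend (0.0638). That of IL11 was lost when shControl replicate 1 or 2 was left out (0.0560 and 0.0656). Transcription factors of the epithelial-mesenchymal transition on the list, such as SNAI1, SNAI2, TWIST1 and ZEB1, were not among the listed genes.

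Of 41 genes for receptors, release and downstream signalling of HMGB1, 7 were listed, 6 rose and 1 fell. Their median log2 fold change was 1.502, while all listed genes had a median of -1.16, with 38.5% up and 59.0% down. This list too was chosen with earlier results of these data known, so the counts are no independent evidence. The receptor gene TLR4 had 45 and 22 in shMIRE, against 6 and 9 in shControl, a low level throughout. THBD, thrombomodulin, which binds HMGB1 at the cell surface, rose 2.83-fold to 5103 ± 456 in shMIRE, against 1804 ± 217 in shControl (SD, n = 2 each). Inflammatory genes that HMGB1 signalling is known to induce were higher in shMIRE. CCL2 rose 4.82-fold, with 3437 and 3467 in shMIRE, against 720 and 712 in shControl. VCAM1, ICAM1 and IL6 rose as given above. HMGB1 protein and its release were not analysed here, so a link of these genes to HMGB1 was not tested. CXCL12, a chemokine that forms a complex with HMGB1, had 9 and 0 in shMIRE, against 29 and 28 in shControl. Once shControl replicate 1 or 2 was left out, TLR4 had an adjusted p of 0.136 and 0.0958 with limma, and with shMIRE replicate 1 left out 0.0610. CXCL12 lost its call when either shControl library was left out (0.276 and 0.275), with quantile normalisation (0.109), with a pseudocount of 0.1 (0.0910) or without the intensity trend (0.0812). The receptor gene AGER, which encodes RAGE, was not among the listed genes.

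Of 39 genes for linker histones and chromatin architecture, 2 were listed and both fell. LMNB1, which encodes lamin B1 of the nuclear lamina, had 2315 and 2359 in shMIRE, against 5215 and 5315 in shControl, a 2.25-fold fall. Over the 5 lists, which hold 191 distinct genes, 29 were listed and 29 passed, 16 up and 13 down. Of all listed genes 97.5% passed, 38.5% up and 59.0% down. The 29 include HMGA2 and HMGB1, and all lists were chosen with earlier results of these data known. Fewer of these list genes, and fewer of all listed genes, passed once any library was left out.

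**Figure D5:**
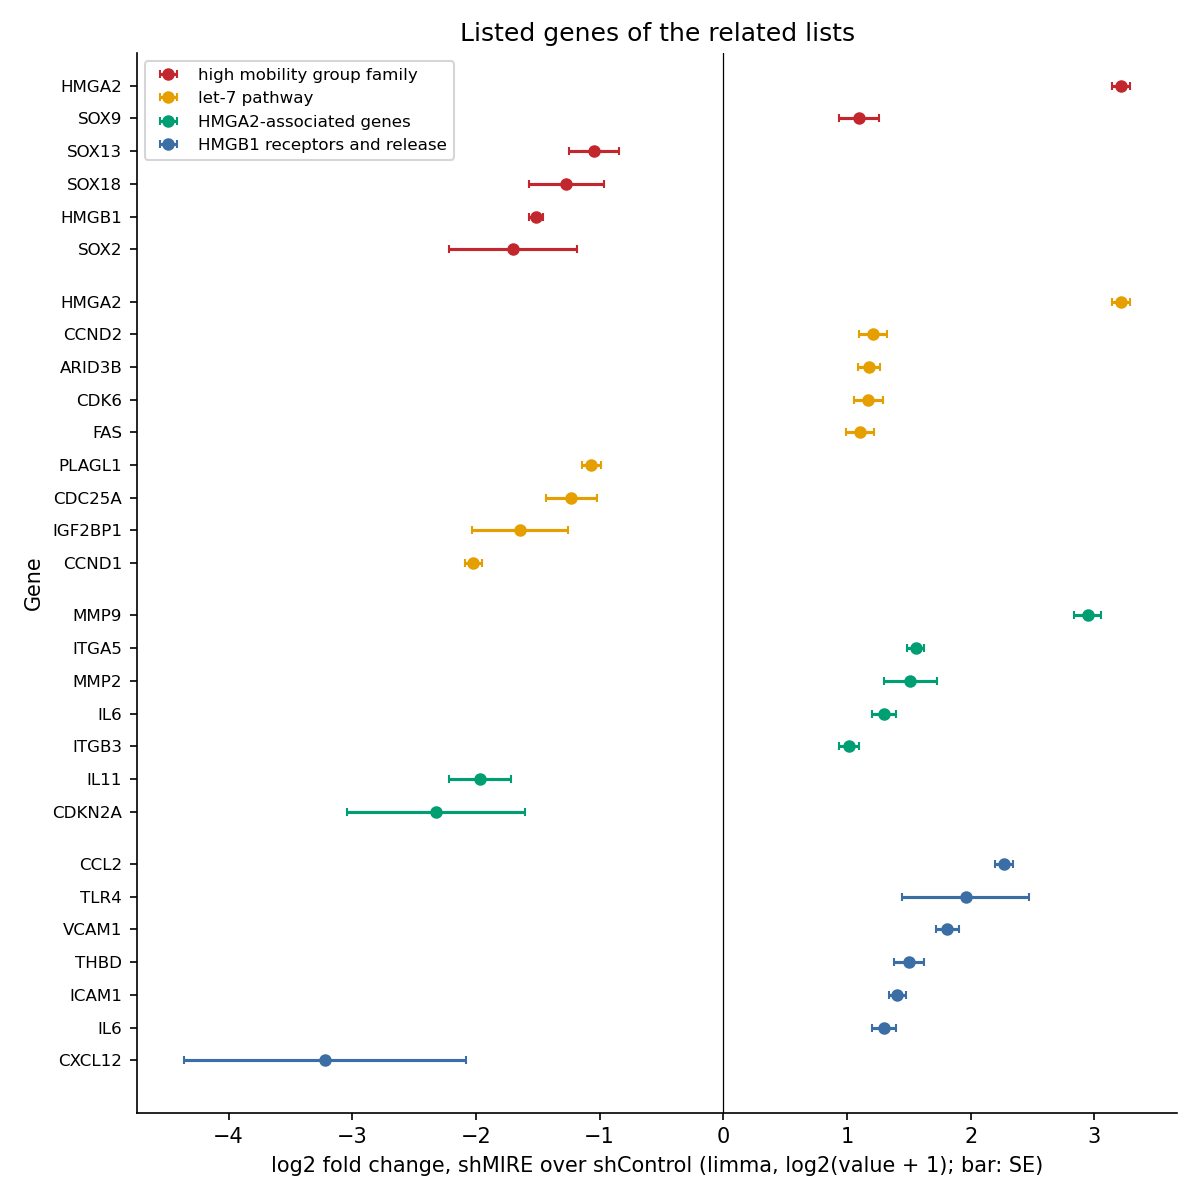
Points give limma's log2 fold change of shMIRE over shControl for the listed genes of 4 lists (high mobility group family, let-7 pathway, HMGA2-associated genes, HMGB1 receptors and release), grouped and coloured by list, and bars its SE. HMGA2 (3.22) and MMP9 (2.95) lie farthest to the positive side, and CXCL12 (-3.22), with values of 0 to 29, has the longest bar.

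The labels call the cells epithelial, and 0 of the 5 epithelial markers and 0 of the 4 markers of clear cell renal carcinoma were listed, so the identity of the cells was not checked. Some markers of other cell types differed together with HMGA2 and HMGB1, and their part in those differences was not tested. Of 4 leukocyte markers 1 was listed (ITGAM, 146 to 155 in shMIRE and 53 to 73 in shControl), and PTPRC was not. In each of the endothelial, fibroblast and proximal tubule lists 1 listed marker rose and 1 fell, and the one that rose made up most of the sum. Of 5 endothelial markers 2 were listed, with sums of 241 in each shMIRE library and 43 to 59 in shControl. ROBO4 rose, and FLT1 fell, with 0 and 0 in shMIRE, against 3 and 11 in shControl. Of 5 fibroblast markers 2 were listed, with sums of 4095 to 4414 in shMIRE and 1274 to 1328 in shControl. COL1A1 rose, and PDPN fell, with 7 and 0 in shMIRE, against 13 and 38 in shControl. Of 6 proximal tubule markers 2 were listed, with sums of 1324 to 1562 in shMIRE and 581 to 790 in shControl. MIOX rose, and LRP2 fell, with 0 and 0 in shMIRE, against 6 and 18 in shControl.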

How the data were processed

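RNA of 4 RCC4 libraries was measured by RNA sequencing of polyadenylated RNA. The values deposited by the authors are whole numbers, handled as a score, for the same 1176 genes; they look scaled and rounded, since replicate 2 over replicate 1 had a median of 1.01 in shMIRE and 1.02 in shControl with no rescaling. The submitters' processing notes name the build hg38, DESeq2 1.20.0, featureCounts 1.5.0-p3 and HISAT2 2.0.5, with no role given. Depth is unknown, so no counting interval is given.

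HMGA2 and HMGB1 and all gene lists were chosen with earlier results of these data known. The comparison used limma 3.58.1 (R 4.3.3) on log2(value + 1), with an intensity trend, no covariates and a mean above 1, and p-values were adjusted by Benjamini-Hochberg over 1176 genes (two-sided). The fit was tested on simulated counts in which most genes were unchanged, unlike the listed genes. That simulation therefore does not give the rate of false calls here. Ratios are of group means. Of the IDs, 1175 matched a symbol and 1174 GENCODE 29, which gave coordinates, exon lengths and 3′ UTRs. Genes named are the 10 largest ratios each way among genes with a mean of at least 10000, the 5 nearest profiles of each gene, and the listed genes of the 5 lists, of which 1 is not reported here; MICAL2, the cell type markers, the genes with several let-7 matches and list genes that were not listed are named outside this rule, after their values were seen.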

Additional observations from a re-analysis of the deposited data

How the results depend on the processing

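HMGA2 kept its direction and its first rank among abundant higher genes under all settings run, and HMGB1 its direction. Quantile normalisation and equal sums of the listed values moved the median of the listed genes upward by 0.32 and 0.30 on the log2 scale; with them the HMGA2 ratio was 11.0 and 11.4, and the HMGB1 ratio of shControl to shMIRE 2.66 and 2.32. Leaving out a library in turn gave 8.85 to 9.76 for HMGA2, 2.82 to 2.90 for HMGB1, a rank of 6 to 12 for HMGB1, 827 to 900 called genes and 19 to 27 called list genes; the lone library was assumed to vary like the other group. HMGB1 ranked 30 with a mean of at least 5000, a setting that admits more genes. A minimum of 20000 was not run, as both means lie below it. The 8-base site CTACCTCA was in 6.10% of higher and 3.27% of lower genes; a seed match in any coding transcript, chosen after seeing the data, was in 13.7% and 11.2%. A fit that took the replicate number as a block called 1175 genes and 29 list genes. The correlation between deviations of libraries with equal numbers was 0.032, and no pairing was assumed. Depth limits are unknown.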

Other observations

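Among the 1162 listed genes with a 3′ UTR, 18 held at least 2 let-7 seed matches in a coding transcript, of which 14 were higher and 4 lower in shMIRE, a count looked at after the other values were known. The higher ones include HMGA2 with 4 matches, LIMD2, a LIM domain gene, also with 4, NHSL2 with 3, and BACH1, a transcription factor of the heme and redox response, with 2. The lower ones were IGF2BP1, CDC25A, TSPYL5 and ZNF641. Genes with 2 matches had a median 3′ UTR of 5482 bases and genes with 0 matches one of 1298.5 bases. Of the genes with 0 matches, 396 of 1020 were higher (38.8%), and of those with 1 match 49 of 124 (39.5%). The part of 3′ UTR length in this count was not tested.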
